A study of Arabidopsis thaliana with 12 samples.

Results

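The subject is a set of 5 Arabidopsis thaliana genes for hydrogen peroxide-removing enzymes and the reductases that serve them: GR (AT3G54660) and GR1 (AT3G24170), SAPX (AT4G08390) and TAPX (AT1G77490), and AT3G11630. They were chosen by locus, with earlier results of these data known. A probe set was a member if its platform annotation named 1 of these loci and no other gene. Exactly 5 probe sets met that rule, 1 per gene, among 22746 probe sets that are not array controls, of which 13513 name a single gene. All 5 members were bright enough to be tested.

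The samples were shoots and roots of control plants and of plants labelled cs, taken from the title of the series as plants under low chronic exposure to the radioactive isotope caesium-137 (Cs below). Each of the 4 groups held 3 ATH1 arrays, 12 in all, and every array carries the developmental stage label 1.0. Accession, dose, exposure time, growth conditions and the number of plants behind an array are not given in the labels. Whether the replicates are separate plants or cultures is also unstated. A p-value here therefore reflects the spread among the arrays of a group, and that spread may be technical.

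Glutathione reductases use NADPH to return oxidised glutathione to its reduced form. Ascorbate peroxidases spend ascorbate to turn hydrogen peroxide into water, and reduced glutathione feeds the recycling of that ascorbate. Peroxiredoxins remove peroxides through reactive cysteines that thioredoxins or related reductases restore. In leaves these routes run in several compartments, and chloroplasts hold their own copies because photosynthetic electron transport makes superoxide and hydrogen peroxide. GR encodes the plastid and mitochondrial glutathione reductase and GR1 the cytosolic and peroxisomal form. SAPX encodes the stromal ascorbate peroxidase, which is also found in mitochondria, and TAPX the form bound to thylakoid membranes. AT3G11630 is described here as a plastid peroxiredoxin gene, and the gene tables used give it no symbol.

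Values below are MAS5 signals, an arbitrary intensity on a linear scale, as mean ± SD over 3 arrays. Fold changes were fitted on log2(signal + 11) with their standard error (SE), so those of dim probe sets are understated. The median signal per array ranged from 41.1 to 49.6. Precision is limited by having 3 arrays per group. The organ labels were checked with fixed markers. The summed signal of 6 nuclear photosynthesis genes lay between 23053 and 29046 in shoots and between 353 and 2386 in roots, and that of the root genes PYK10 and EXPA7 between 344 and 801 in shoots and between 3000 and 4076 in roots. The highest root value of the photosynthesis sum was that of Cs root replicate 2. Shoot-specific transcripts were taken as 296 probe sets with a 16-fold or larger excess in control shoots over control roots. In Cs root replicate 2 their median signal was 5.65% of their control shoot mean, against 1.62% to 2.97% in the other 5 roots. Control roots were low by that choice, while Cs root replicates 1 and 3 had 2.23% and 1.62%.

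The organ was the main divider of the set. GR, TAPX and AT3G11630 had far lower signals in roots than in shoots, whereas GR1 and SAPX had no organ difference that passed in the reported fit. In control plants GR fell 4.47-fold and AT3G11630 5.46-fold from shoot to root. TAPX also fell, with a log2 difference between -4.31 and -3.02 depending on the pseudocount, and it was tested through its shoot signal alone. None of the 5 genes passed as higher in root. Of all tested probe sets 22.3% passed as lower and 38% as higher in root in control plants. The same 3 genes passed in Cs plants, where these shares were 21.9% and 36.1%. RNA came from whole organs, so fewer cells of a type and less RNA per cell cannot be told apart.

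**Figure D1:**
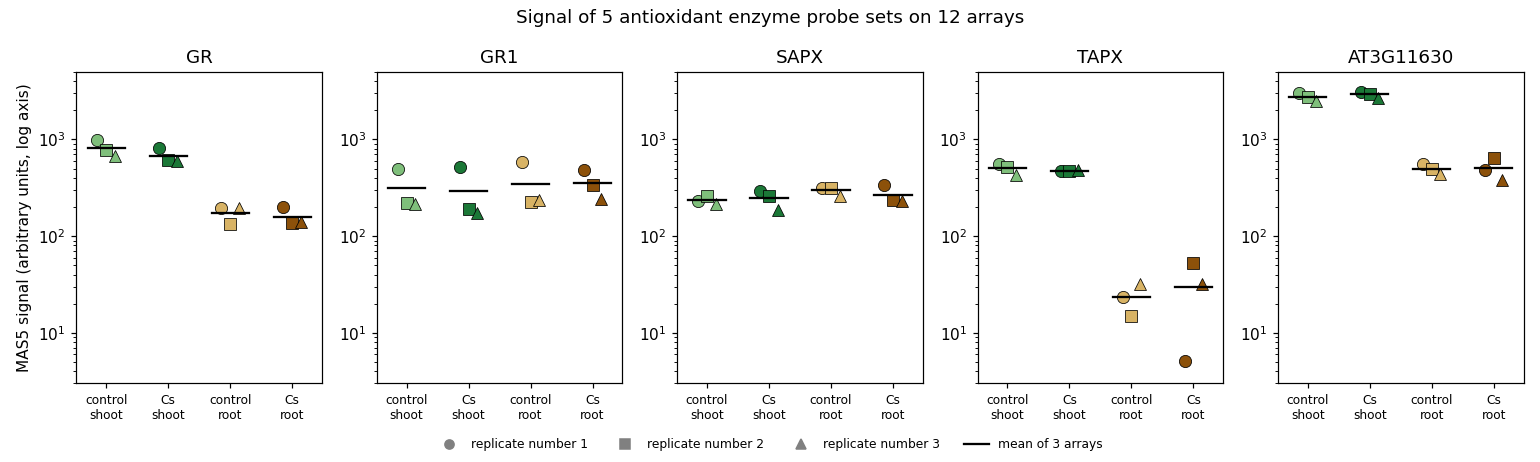
MAS5 signal (log axis) of each member on the 12 arrays, 1 panel per gene, with symbols for the replicate number and a bar at the mean of 3 arrays. GR, TAPX and AT3G11630 drop from shoot to root, GR1 and SAPX do not, and the arrays numbered 1 are the highest of each group for GR1. Heights are not comparable between panels.

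Among the glutathione reductases, GR signals were 986, 786 and 679 in control shoots and 810, 609 and 598 in Cs shoots, in the order of replicates 1 to 3. In roots they were 196, 133 and 196 in control and 201, 138 and 139 in Cs plants. Every root array was therefore far below every shoot array. The root mean was 21.4% of the shoot mean in control plants and 23.7% in Cs plants. The log2 difference of root against shoot was -2.16 ± 0.21 (SE) in control plants (limma, adjusted p = 2.08e-06) and -2.01 ± 0.21 in Cs plants (limma, adjusted p = 4.17e-06).

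GR1, the cytosolic form, gave a different picture. Its signals were 500, 223 and 217 in control shoots, 524, 189 and 173 in Cs shoots, 578, 226 and 235 in control roots, and 477, 335 and 239 in Cs roots. The organs overlapped in both control and Cs plants, and in each of the 4 groups the array numbered 1 was the highest. The log2 difference of root against shoot was 0.11 ± 0.47 in control and 0.37 ± 0.47 in Cs plants (limma, adjusted p = 0.852 and 0.524). The 95% interval in control plants ran from 0.53-fold to 2.20-fold, so this fit could not detect a moderate organ difference in either direction. With the replicate number as a block within each tissue the SE was 0.15. GR1 then did not pass in control or in Cs plants (limma, adjusted p = 0.533 and 0.0536). When the 4 arrays numbered 1 were left out, a setting added once the data had been seen, GR1 passed as higher in Cs roots than in Cs shoots (log2 difference 0.62 ± 0.18, limma, adjusted p = 0.0132).

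The spread of GR1 follows the replicate number more than that of the other members. Arrays numbered 1 exceeded those numbered 2 and 3 by 1.32 on the log2 scale in shoots and by 1.01 in roots. These offsets were larger than those of 99.4% of tested probe sets in shoots and 99.1% in roots. For GR the same offset was 0.42 and 0.38, for SAPX 0.18 and 0.33, and for AT3G11630 0.17 and 0.097. For TAPX it was 0.11 in shoots and -0.84 in roots, where its signals are low. What the replicate number stands for is not given, and its part in the GR1 values was not tested beyond the fits that leave those arrays out or take the number as a block.

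Of the ascorbate peroxidases, TAPX had the largest organ difference of the 5 genes. Its signals were 556, 520 and 433 in control shoots and 473, 466 and 488 in Cs shoots. In roots they were 23.4, 14.9 and 32.3 in control and 5.05, 52.6 and 32.3 in Cs plants, which is 4.68% and 6.30% of the shoot means. The log2 difference of root against shoot was -3.92 ± 0.38 in control and -3.78 ± 0.38 in Cs plants (limma, adjusted p = 1.92e-06 and 2.80e-06). TAPX reached the filter on low values through its shoot signal alone, so a shoot excess was a condition of its being tested, and it also fell in control roots with no filter. Its size follows the pseudocount, with -4.31 in control plants at a pseudocount of 2.75 and -3.02 at 44. The highest TAPX root signal was that of Cs root replicate 2, the array with the most signal from shoot-specific transcripts, and the part of those transcripts in it was not tested. Without that array the log2 difference in Cs plants was -4.21.

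SAPX, the stromal enzyme, kept its signal in roots. It stood at 229, 259 and 214 in control shoots, 292, 258 and 188 in Cs shoots, 318, 318 and 260 in control roots, and 338, 236 and 232 in Cs roots. In control plants the lowest root array, at 259.5, was just above the highest shoot array, at 259.0, whereas in Cs plants the organs overlapped. The log2 difference of root against shoot was 0.33 ± 0.19 in control and 0.12 ± 0.19 in Cs plants (limma, adjusted p = 0.146 and 0.606). In control plants the 95% interval ran from 0.95-fold to 1.68-fold, which does not reach the falls of GR, TAPX or AT3G11630. Groups that do not overlap were common between organs, at 65.6% of the tested probe sets in control and 64.9% in Cs plants. With the replicate number as a block within each tissue the control difference of SAPX passed (limma, adjusted p = 0.0483). Whether the numbers mark pairs was not settled in either organ.

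AT3G11630, the peroxiredoxin gene, shared the organ pattern of GR. It stood at 3015, 2720 and 2522 in control shoots and 3099, 2973 and 2702 in Cs shoots. Control roots had 554, 498 and 436 and Cs roots 481, 645 and 384. The root mean was 18.0% of the shoot mean in control and 17.2% in Cs plants. The log2 difference of root against shoot was -2.45 ± 0.18 in control and -2.54 ± 0.18 in Cs plants (limma, adjusted p = 1.42e-07 and 1.14e-07). As for TAPX, the highest Cs root signal was in replicate 2. Without that array the log2 difference in Cs plants was -2.73.

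Organ differences were the rule on these arrays. In control plants 60.3% of the 15508 tested probe sets passed the limma test in either direction, and 22.3% passed as lower in root. In Cs plants the shares were 58% and 21.9%. The members were 3 of 5 lower and 0 of 5 higher in each case, with TAPX tested through its shoot signal only. The median log2 difference over all tested probe sets was 0.24 in control and 0.22 in Cs plants, on the side of root, against -2.16 and -2.01 over the 5 members. Only 7.58% of tested probe sets had a lower value than GR in control plants, 6.18% a lower value than AT3G11630 and 2.02% a lower value than TAPX. Since the members were chosen with earlier results of these data known, these medians and ranks describe them and test nothing.

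**Figure D2:**
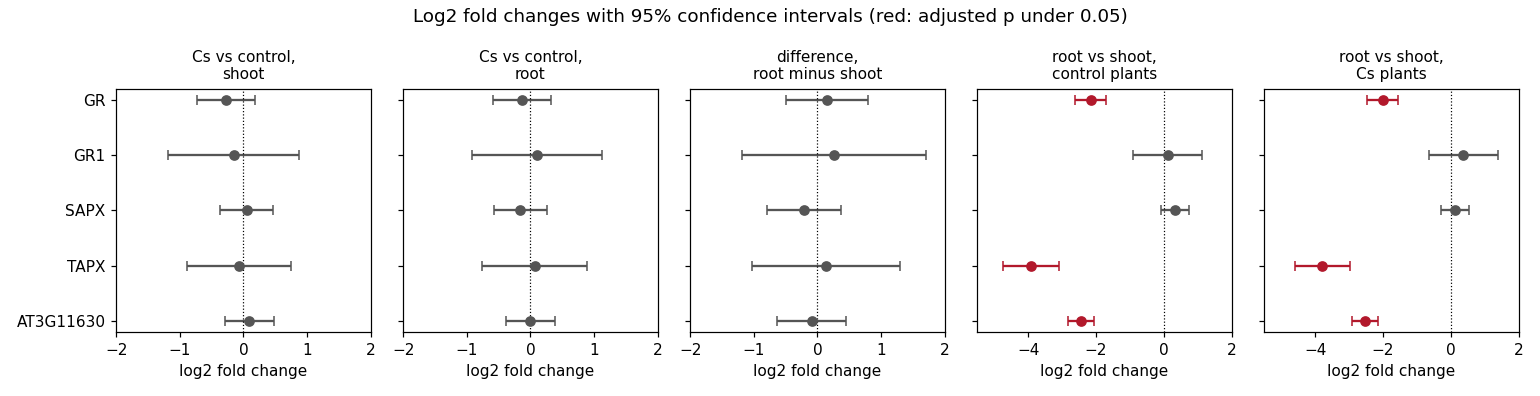
Log2 fold changes (x axis) of the 5 genes in each of 5 comparisons, with 95% confidence intervals from limma, red where the adjusted p was under 0.05. The intervals of all Cs comparisons span 0, and GR, TAPX and AT3G11630 lie far below 0 in root against shoot in control and Cs plants.

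Within each enzyme pair the unequal organ change can be read from ratios inside an array, which share that array's scaling. The level of a ratio itself has no meaning, since the probe sets differ, but its change between groups does. The log2 ratio of GR over GR1 was 1.44 ± 0.43 (SD, n = 3) in control shoots, 1.33 ± 0.62 in Cs shoots, -0.83 ± 0.64 in control roots and -1.05 ± 0.27 in Cs roots. The lowest shoot ratio was 0.62 and the highest root ratio -0.25, so the organs did not overlap. From shoot to root the ratio changed by -2.33, so GR fell 5.01-fold relative to GR1 (two-sided exact permutation test within exposure over 400 arrangements, p = 0.005, the smallest possible, adjusted p = 0.01 over 4 ratio tests).

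Both enzymes of the other pair are plastid proteins, and they also parted. The log2 ratio of SAPX over TAPX was -1.07 ± 0.15 in control shoots and -0.94 ± 0.34 in Cs shoots. In roots it was 3.19 ± 0.51 in control and 2.96 ± 1.31 in Cs plants. It was higher in 6 of 6 root arrays than in any shoot array. The rise was 4.08 on the log2 scale with the pseudocount of 11, 4.53 with 2.75 and 3.15 with 44 (two-sided exact permutation test, p = 0.005 and adjusted p = 0.01 with each). TAPX is near the floor in roots and was kept for its shoot signal, so the direction can be read from this ratio but not its size, and a fall of TAPX was favoured by the filter. SAPX, a plastid form, thus lay with cytosolic GR1 in having no organ difference that passed in the reported fit. With the replicate number as a block (exact sign flips of same-numbered pairs, 64 arrangements), the GR over GR1 and SAPX over TAPX shifts each had p = 0.0312, the smallest possible, and an adjusted p of 0.0625.

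**Figure D3:**
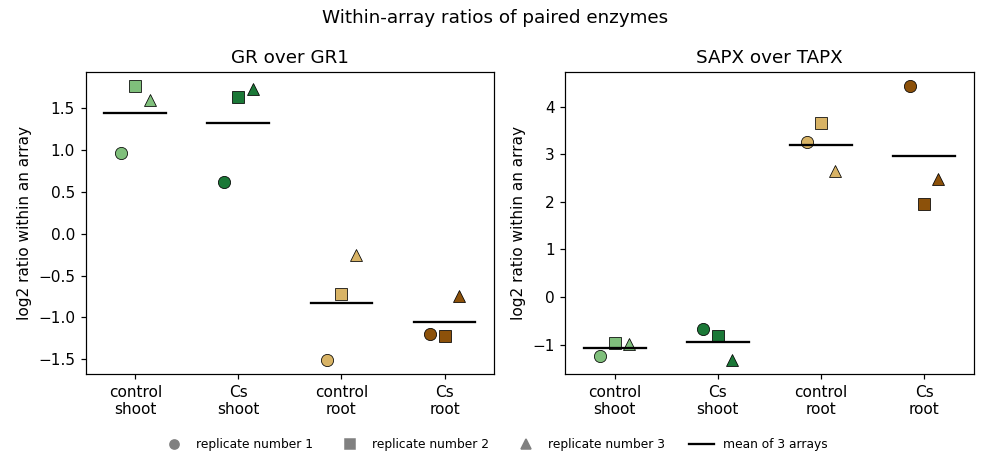
Within-array log2 ratios of GR over GR1 and of SAPX over TAPX for each array, by group, with symbols for the replicate number and bars at the mean of 3 arrays. In each pair shoot and root arrays are fully apart, while control and Cs arrays of an organ overlap.

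The question of the series is what chronic Cs exposure does to transcripts, and for these 5 genes no change passed in either organ. In shoots, where 0% of all tested probe sets passed the adjusted threshold, 0 of 5 members passed, 2 had a log2 fold change above 0 and 3 below, as did 53.1% and 46.9% of the tested probe sets. In roots the background was also 0%, and again 0 of 5 passed, with 2 above 0 and 3 below, beside 50.2% and 49.8% of the tested probe sets. At an unadjusted limma p under 0.05 the count was 0 of 5 in each organ, against 2.09% of tested probe sets in shoots and 3.8% in roots. For all 5 genes the control and Cs arrays overlapped in shoots and in roots. They lay fully apart in 6.35% of tested probe sets in shoots and in 8.89% in roots.

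GR in shoots came nearest to a difference. Its mean went from 817 ± 156 to 672 ± 119, for a log2 fold change of -0.27 ± 0.21 (limma, unadjusted p = 0.216, adjusted p = 1), with a 95% interval from 0.60-fold to 1.14-fold. The same-numbered Cs shoot was lower in 3 of 3 pairs, by log2 differences of -0.28, -0.36 and -0.18, which happened in 11.3% of tested probe sets. With a replicate block the log2 fold change kept its value and did not pass. The SE was 0.13 with the block within each tissue (limma, unadjusted p = 0.0533, adjusted p = 0.946). It was 0.15 with the block over both tissues (limma, unadjusted p = 0.0842). In the shoot arrays alone, a setting added once the data had been seen, the SE was 0.10 (limma, unadjusted p = 0.014, adjusted p = 0.682). In roots GR had a log2 fold change of -0.13 ± 0.21, and the pairs gave 0.037, 0.048 and -0.47.

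AT3G11630 moved the other way in shoots, with a mean of 2752 ± 248 in control shoots and of 2925 ± 203 under Cs. Its log2 fold change was 0.089 ± 0.18, and the same-numbered pairs gave 0.040, 0.13 and 0.099, all above 0, as in 15.7% of tested probe sets. The 95% interval from 0.82-fold to 1.39-fold bounds a change in shoots more tightly than for any other member. In roots its log2 fold change was -0.0043 ± 0.18, with an interval from 0.76-fold to 1.30-fold.

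The ascorbate peroxidases and GR1 showed no steady direction. SAPX had log2 fold changes of 0.052 ± 0.19 in shoots and -0.16 ± 0.19 in roots, and its shoot pairs gave 0.33, -0.0040 and -0.17. TAPX had -0.072 ± 0.38 in shoots and 0.064 ± 0.38 in roots, with 1 spread shared by both organs. Fitted to shoot arrays alone, its shoot value had an SE of 0.15 and did not pass (limma, unadjusted p = 0.639). Its root signals are near the floor, with pairs of -1.10, 1.29 and 0.00034, and its root value followed single arrays. It was -0.36 without Cs root replicate 2 (limma, unadjusted p = 0.316), 0.63 without Cs root replicate 1 (unadjusted p = 0.0176) and 0.65 without the 4 arrays numbered 1 (unadjusted p = 0.0315), with an adjusted p of 0.606 or more in each. The difference between organs was 0.71 without Cs root replicate 1 (limma, unadjusted p = 0.0412). GR1 had -0.16 ± 0.47 in shoots and 0.10 ± 0.47 in roots. Its 95% intervals in this fit, without a block, ran from 0.44-fold to 1.83-fold in shoots and from 0.53-fold to 2.18-fold in roots. They leave room for sizeable changes in either direction. With the replicate number as a block within each tissue the SE of GR1 was 0.15 in shoots and in roots. Neither change passed there (limma, adjusted p = 0.988 and 0.901).

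Neither enzyme pair shifted with exposure beyond the spread of the arrays. The GR over GR1 ratio changed by -0.17 (exact permutation test within organ, 400 arrangements, p = 0.51, adjusted p = 0.68) and the SAPX over TAPX ratio by -0.051 (p = 0.925, adjusted p = 0.925). TAPX is near the floor in roots, so a change of the SAPX over TAPX ratio there could be missed. Leaving out 1 array at a time gave -0.42 to 0.20 for that ratio. The Cs response did not differ detectably between organs either. Of the tested probe sets 0% passed for the difference and 2.2% had an unadjusted limma p under 0.05, and 0 of 5 members did either. The difference, root minus shoot, was 0.15 ± 0.30 for GR, 0.26 ± 0.67 for GR1, -0.21 ± 0.27 for SAPX, 0.14 ± 0.54 for TAPX and -0.093 ± 0.25 for AT3G11630 (limma, adjusted p = 1 for each).

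The wider antioxidant network was followed through lists of 82 other genes for superoxide dismutases, catalases, ascorbate peroxidases, ascorbate synthesis and recycling, glutathione synthesis and peroxidase-like enzymes, peroxiredoxins and their reductases, thioredoxins and glutaredoxins. Of these, 22 have a probe set that names them alone and 20 were tested. The catalases and the glutathione peroxidase-like genes have none. In control plants 5 of the 20 were higher and 11 lower in root, against 38% and 22.3% of all tested probe sets, with a median log2 difference of -1.22. The 11 include TRXF2, which passed the filter through its shoot signal only, so a shoot excess was a condition of its being counted. In Cs plants 6 were higher and 11 lower, with a median of -1.26, beside 36.1% and 21.9% of all tested probe sets. In shoots and in roots 0 of 20 passed between Cs and control plants, beside 0% of all tested probe sets in each organ. The medians of the 20 were -0.036 and -0.068.

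Genes that serve plastid peroxiredoxins lay with AT3G11630. In control plants NTRC, a plastid thioredoxin reductase with its own thioredoxin domain that reduces such peroxiredoxins, had 525 ± 80.2 in shoots and 67.5 ± 15.9 in roots, a log2 difference of -2.78 ± 0.21. SRX, the sulfiredoxin that repairs overoxidised peroxiredoxin, had a log2 difference of -1.78 ± 0.19, and AT3G52960 of the peroxiredoxin list had -1.91 ± 0.20. All 3 were lower in root by the limma test, as were 22.3% of all tested probe sets in control plants. PRXIIF, the mitochondrial peroxiredoxin, had 348 ± 45.7 in shoots and 336 ± 5.02 in roots, a log2 difference of -0.041 ± 0.15 that did not pass.

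The 5 tested thioredoxins are all plastid proteins. In control plants 4 were lower and 1 was higher in root, beside 22.3% and 38% of all tested probe sets, and TRXF2, 1 of the 4, was tested through its shoot signal only. In control plants the log2 difference was -2.73 ± 0.18 for THX, the x-type thioredoxin, -3.61 ± 0.30 for ty2, a y-type form, and -1.95 ± 0.17 for ATHM2, an m-type form. TRXF2, an f-type thioredoxin that activates Calvin cycle enzymes, had -3.97 ± 0.25. TY1, the other y-type form, was higher in root, with 62.5 ± 9.36 in control shoots and 178 ± 13.8 in control roots (1.37 ± 0.18, limma, adjusted p = 3.12e-05). The y-type pair thus went opposite ways, and as with SAPX a plastid enzyme did not follow the shoot pattern.

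**Figure D4:**
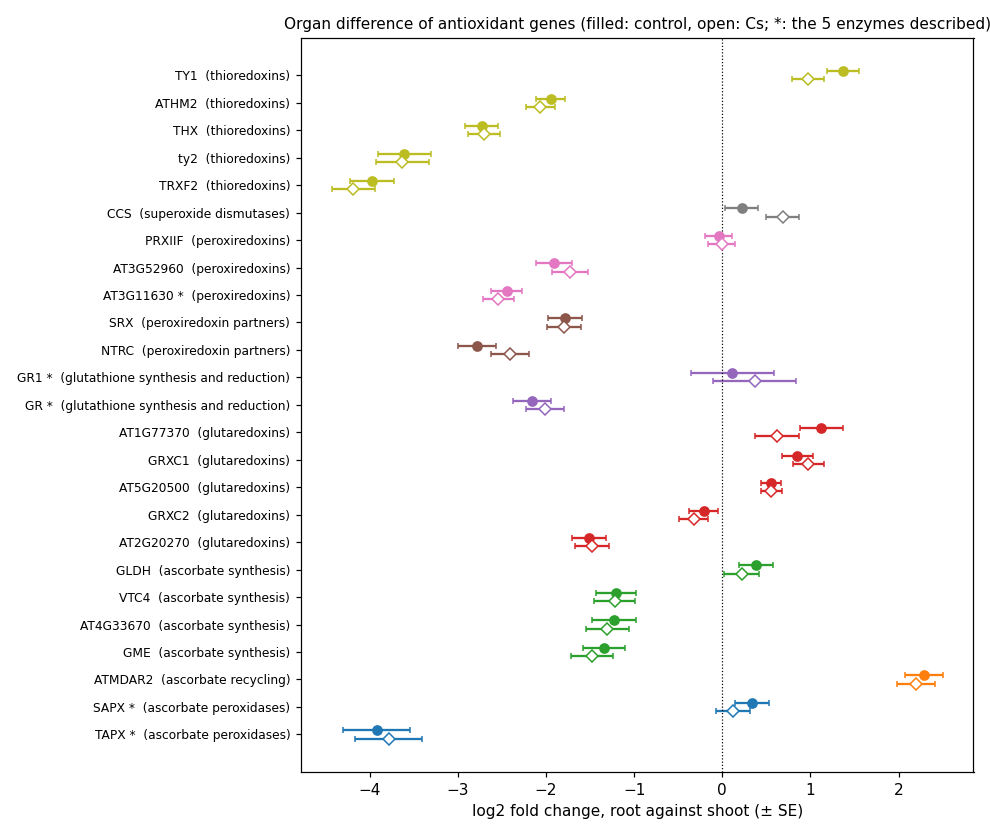
Log2 fold change of root against shoot (x axis, ± SE) in control (filled) and Cs plants (open) for the 5 enzymes, starred, and the 20 other tested antioxidant genes, grouped and coloured by list. ATMDAR2 lies furthest towards root and TAPX and TRXF2 furthest towards shoot, and the widest gaps between control and Cs symbols are those of AT1G77370, CCS and TY1.

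Genes of the ascorbate cycle were split. ATMDAR2, a monodehydroascorbate reductase that recycles ascorbate, was the most root-biased of the 20, with 155 ± 46.4 in control shoots and 783 ± 101 in control roots (log2 difference 2.29 ± 0.22, limma, adjusted p = 1.65e-06). VTC4 and GME, enzymes of ascorbate synthesis, were lower in root, with log2 differences of -1.21 ± 0.23 and -1.34 ± 0.23, as was AT4G33670 of the same list with -1.23 ± 0.25. GLDH, the mitochondrial enzyme of the last step of ascorbate synthesis, had 0.38 ± 0.20 and did not pass.

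Among glutaredoxins, which use glutathione to reduce disulfides, GRXC1, AT1G77370 and AT5G20500 were higher in control roots, by 0.85 ± 0.18, 1.12 ± 0.25 and 0.55 ± 0.12. AT2G20270 was lower, with -1.51 ± 0.20, and GRXC2 had -0.21 ± 0.16 and did not pass. CCS, the copper chaperone of superoxide dismutase, had the smallest unadjusted p of the network in Cs against control roots. Its signal was 55.2 ± 10.7 in control roots and 97.6 ± 26.1 under Cs. This log2 fold change of 0.70 ± 0.19 did not pass (limma, unadjusted p = 0.0027, adjusted p = 1). CCS was also the gene that passed between organs only in Cs plants (0.68 ± 0.19, limma, adjusted p = 0.00735, against 0.22 ± 0.19 in control plants). The difference between these organ effects, 0.47 ± 0.26, did not pass (limma, adjusted p = 1).

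Each member was also set beside the 8457 other tested probe sets that name 1 gene, by Pearson correlation of log2 signals over the 12 arrays. These correlations are a description, since all points share their arrays and the organ difference dominates them. For AT3G11630 the closest patterns were those of AT2G17972, AT1G32220 and AT1G74730, at 0.998 each. For GR they were AT5G06060 at 0.996, AT5G20130 and AT1G52590, each at 0.990. For TAPX they were CcdA at 0.993, AT5G63180 and AT2G46220, both at 0.991. In control plants all 9 of these neighbours had a lower mean signal in root than in shoot. This follows from their being picked for likeness to members that fall in root.

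For the members without an organ drop the closest patterns were weaker. SAPX was nearest to AT5G26830 at 0.966, followed by AT5G63000 at 0.889 and AT3G03680 at 0.884. GR1 was nearest to AT1G19140 at 0.955, AT3G61490 at 0.948 and AT1G33260 at 0.914. When the 4 group means were subtracted, so that only the spread between replicates was left, SAPX was again nearest to AT5G26830 at 0.982, and GR1 was nearest to CYTC-2, a cytochrome c gene, at 0.987. GR was then nearest to AT3G19100 at 0.967, AT3G11630 to AT3G50685 at 0.943 and TAPX to AT3G45750 at 0.928. Each is the highest of 8457 correlations, so these values too are a description and were not tested. The deviations of GR1 include the offset of the arrays numbered 1, and those of TAPX include root signals near the floor.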

How the data were processed

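Total RNA of 12 samples was hybridised to ATH1 arrays, and group and replicate number were read from the sample titles. The deposited values are linear intensities with 1 value for each probe set on each array, made with MAS5 per the submitters' processing notes. The 2% trimmed mean was 100.0 on every array, and 0 pairs of arrays were identical. For background correction and detection calls the sources used here give nothing. Probe sets were named from the platform annotation, and RefSeq's TAIR10.1 gene table supplied current symbols (13436 of 13513 found). No coordinates or sequences are given.

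Tests used log2(signal + 11), with a pseudocount set to 0.25 of the median array median. Probe sets at or above the 40th percentile of mean log2 signal in at least 1 tissue were tested, which left 15508. The model, fitted with limma 3.58.1 under R 4.3.3, held 1 mean per group over the 12 arrays (8 residual degrees of freedom), an eBayes intensity trend and Benjamini-Hochberg adjustment over all tested probe sets at 0.05. The limma step was tested on simulated data. Ratios of 2 members were tested by exact permutation within strata.

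The 5 members, the gene lists and the naming rule were chosen with earlier results of these data known. By that rule all members are described. Other list genes are named where they passed, or otherwise where they had the smallest p of their list, and GLDH, PRXIIF and GRXC2 are named to complete their lists. The 3 nearest patterns over the arrays and the nearest after removing group means are named for each member. Same-numbered control and Cs arrays deviated together from their group means in shoots, with correlations of 0.71, 0.41 and 0.45, and in roots with 0.47, -0.02 and 0.40. Differently numbered shoots also agreed, at 0.20 for control 2 with Cs 3 and 0.37 for control 3 with Cs 2. Shoots numbered 1 went against the other numbers, at -0.58 to -0.43. The shoots thus set number 1 apart from 2 and 3, and whether the numbers mark pairs was not settled in either organ.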

Additional observations from a re-analysis of the deposited data

How the results depend on the processing

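The falls of GR, TAPX and AT3G11630 from shoot to root passed under all 22 alternatives run in control and in Cs plants. For TAPX most of these carry less weight, since with the filter of the reported fit it was tested through its shoot signal only. The fit with no filter does not have that limit. The members passing between organs numbered 3 or 4, and between Cs and control plants 0 under every alternative run, so the replicate block changed no call there. Over the same alternatives all probe sets passing between organs numbered 8362 to 10671 in control and 8152 to 10341 in Cs plants. Between Cs and control plants they numbered 0 to 3 in shoots and 0 to 23 in roots. The block left the GR over GR1 and SAPX over TAPX shifts between organs at -2.33 and 4.08, each with an adjusted p of 0.0625, at the smallest unadjusted p that 64 sign flips allow, 0.0312. Array-median centring or no filter lowered the median of all probe sets in root against shoot from 0.24 to 0.14 or 0.11 in control plants and from 0.22 to 0.10 or 0.11 in Cs plants. Values near 0 changed sign, and the cause was not tested. In Cs against control roots TAPX had -0.034 with a pseudocount of 2.75 and -0.0084 with quantile normalization. AT3G11630 had 0.029 there with quantile normalization, 0.055 with array weights and 0.093 without the 4 arrays numbered 1. In Cs against control shoots SAPX had -0.076 with array weights and -0.089 without the arrays numbered 1, and TAPX 0.0070 without them. SAPX in root against shoot of Cs plants had -0.0011 with array-median centring.

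Leaving out each array in turn gave ranges that cross 0. In Cs against control shoots these were -0.65 to 0.23 for GR1, -0.077 to 0.23 for SAPX and -0.17 to 0.0029 for TAPX. In roots they were -0.14 to 0.53 for GR1, -0.36 to 0.63 for TAPX and -0.20 to 0.17 for AT3G11630. For the difference between organs they were -0.027 to 0.29 for GR, -0.13 to 0.75 for GR1, -0.29 to 0.71 for TAPX and -0.28 to 0.082 for AT3G11630. Between organs they were -0.32 to 0.49 for GR1 in control and -0.052 to 0.25 for SAPX in Cs plants. By exposure the GR over GR1 ratio ran from -0.34 to 0.0036 and SAPX over TAPX from -0.42 to 0.20. TAPX was not bright enough to be tested in fits to root arrays alone. All probe sets called in Cs against control roots numbered 0 in the fit reported, 1 with a pseudocount of 44, 6 with the replicate block within each tissue, 23 with it in root arrays alone, 6 without the arrays numbered 1 and 10 without Cs root replicate 1. In shoots they were 3 with the block in shoot arrays alone. The fits to 1 tissue with the block and those without the arrays numbered 1 were added after seeing the data.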
